A study of Mus musculus with 2 samples.

Results

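Sox transcription factors are described here in single cells of the newborn mouse heart, for 8 of the 19 Sox genes in the deposited count tables (Sox4, Sox5, Sox6, Sox7, Sox9, Sox11, Sox17 and Sox18), out of 27999 features in all. The members were given by name, their Ensembl identifiers were matched to symbols, and their counts were read in 8601 of 11935 cell barcodes, those with at least 500 detected genes and under 0.5% haemoglobin counts. The hearts were whole hearts of P0 mice (day 0 after birth) on the background written as C57BL6+ICR, without any treatment or transgene named in the labels, dissociated with trypsin at 37 °C for 30 minutes in 6 fractions. They gave 1 biological replicate, loaded as 2 technical replicates on the 10x Genomics 3′ droplet system to build a reference map of heart cells for a reprogramming study. How many animals were pooled is not given in the sources used here.

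Sox proteins bind DNA through a high mobility group (HMG) box and bend it, and they fall into families by the sequence of that box. SoxF (Sox7, Sox17, Sox18) acts in blood and lymphatic endothelium, with Sox17 best known from arteries. SoxC (Sox4, Sox11) acts in progenitor cells and in the cushions and outflow tract of the developing heart, SoxE here is Sox9, which acts in cartilage and in the mesenchyme of heart valves, and SoxD (Sox5, Sox6) has no activation domain of its own and works beside Sox9 in cartilage.

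The start of the HMG box is shown for each member because it is what defines the family, as 60 bases of coding sequence from GENCODE release M21 (GRCm38), 5′ to 3′ on the gene's strand, each within 1 coding exon. Capitals mark bases that differ from the Sox17 line. The stretches lie at chr1:4493146-4493205 (Sox17, minus strand), chr2:181671228-181671287 (Sox18, minus), chr14:63943888-63943947 (Sox7, plus), chr13:28952788-28952847 (Sox4, minus), chr12:27342205-27342264 (Sox11, minus), chr11:112782897-112782956 (Sox9, plus), chr6:143841220-143841279 (Sox5, minus) and chr7:115489709-115489768 (Sox6, minus).
Sox17: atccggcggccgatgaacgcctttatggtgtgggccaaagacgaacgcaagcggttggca
Sox18: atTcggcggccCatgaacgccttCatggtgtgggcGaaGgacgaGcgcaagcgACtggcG
Sox7: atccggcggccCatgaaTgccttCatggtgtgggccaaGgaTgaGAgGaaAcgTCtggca
Sox4: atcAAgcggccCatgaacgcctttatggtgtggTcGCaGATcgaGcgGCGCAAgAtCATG
Sox11: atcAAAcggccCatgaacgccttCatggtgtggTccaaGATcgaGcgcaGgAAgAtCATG
Sox9: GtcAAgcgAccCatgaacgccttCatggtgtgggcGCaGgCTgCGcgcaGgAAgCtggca
Sox5: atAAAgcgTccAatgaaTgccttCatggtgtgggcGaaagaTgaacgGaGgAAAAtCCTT
Sox6: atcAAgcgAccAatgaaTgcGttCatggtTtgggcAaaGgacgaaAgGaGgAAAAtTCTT
Over 237 bases from the same start, Sox17 and Sox18 shared 81.4% of bases, Sox7 and Sox17 80.6%, and Sox7 and Sox18 76.4%. Sox4 and Sox11 shared 88.6%, and Sox5 and Sox6 81.4%. Pairs from different families shared 53.2% to 76.4%, the highest being Sox9 with Sox17.

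The sequence before the start site is shown for Sox4 and Sox11, the SoxC pair whose levels are set against the cell cycle further on. RefSeq's promoter table (GRCm38.p6) held 4 of the 8 members: Sox4, Sox5, Sox6 and Sox11. Capitals mark CCAAT on either strand, the letters of the box bound by NF-Y. The Sox4 stretch is chr13:28953714-28953949 and the Sox11 stretch chr12:27342719-27342968, both on the minus strand and printed 5′ to 3′.
Sox4: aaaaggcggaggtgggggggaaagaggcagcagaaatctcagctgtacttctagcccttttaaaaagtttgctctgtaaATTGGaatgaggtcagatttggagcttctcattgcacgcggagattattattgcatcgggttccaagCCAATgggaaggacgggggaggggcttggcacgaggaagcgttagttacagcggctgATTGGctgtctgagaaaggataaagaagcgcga
Sox11: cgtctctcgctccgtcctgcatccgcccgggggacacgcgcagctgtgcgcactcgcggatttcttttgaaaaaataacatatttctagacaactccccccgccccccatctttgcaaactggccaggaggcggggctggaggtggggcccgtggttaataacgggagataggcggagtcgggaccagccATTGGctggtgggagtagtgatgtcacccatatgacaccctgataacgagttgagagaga
CCAAT occurred 3 times before Sox4 and 1 time before Sox11, and 33.85% of the 32851 windows of 250 bases in the table held it on either strand. ACAATG, letters of a Sox site, occurred in neither stretch and in 10.7% of all windows, and CCGGAAG, letters of an ETS site, in neither and in 6.91% (both strands; none of these motifs overlap each other here). The Sox4 stretch has 236 bases because those inside the annotated gene were left out.

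Cells were placed in types by lists of marker genes that hold no Sox gene, and 8021 of the 8601 cells (93.3%) fell into 12 types with at least 50 cells. These were capillary (544 cells), arterial (58) and endocardial (237) endothelium, ventricular (4007) and atrial (1423) cardiomyocytes, interstitial (1005) and valve or tendon-like (66) fibroblasts, great vessel (105) and coronary-like (140) smooth muscle, pericytes (235), epicardial cells (63) and macrophages (138). Cells of the endothelial types had a median of 9 of 10 endothelial markers and 1 to 2 of 8 fibroblast markers. They also had a median of 5 (capillary), 6 (arterial) and 4 (endocardial) of 10 cardiomyocyte markers, of which 6 is the cardiomyocyte minimum, and the other non-cardiomyocyte types had 4 or 5. Cardiomyocytes of both chambers had a median of 0 endothelial markers. Only 4 cells passed as lymphatic, and none of the 12 types holds them. The arterial type rests on 2 or more counts of the connexins Gja4 and Gja5, and 15 of its 58 cells also passed the marker minimum of another class. Of the 63 epicardial cells 61 did so, with a median of 5 of 8 fibroblast markers. Median counts per cell ran from 4042 in pericytes to 12920 in arterial cells. The median cell gave 41.1% of its counts to mitochondrial genes among ventricular cardiomyocytes, 21.5% among atrial cardiomyocytes, and 3.13% to 5.34% elsewhere. The libraries shared 53 barcode sequences.

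Levels are CPM: a gene's counts summed over the cells of a type, per 1000000 counts of those cells. With 1 biological replicate there is no test. Intervals are at 95% and for counting error only (exact Poisson for levels, conditional binomial for ratios, Clopper-Pearson for shares). They take the deposited counts as independent, and not every level or ratio is printed with one. In the text a bracketed range after a level, share or ratio is its interval. A bracketed pair after a level or ratio gives its values in technical replicates 1 and 2. A gene is called different between groups of cells where it differed at least 2-fold in the same direction in both technical replicates, with at least 20 counts in the groups together in each. Levels are compared within a gene, not between genes.

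**Figure D1:**
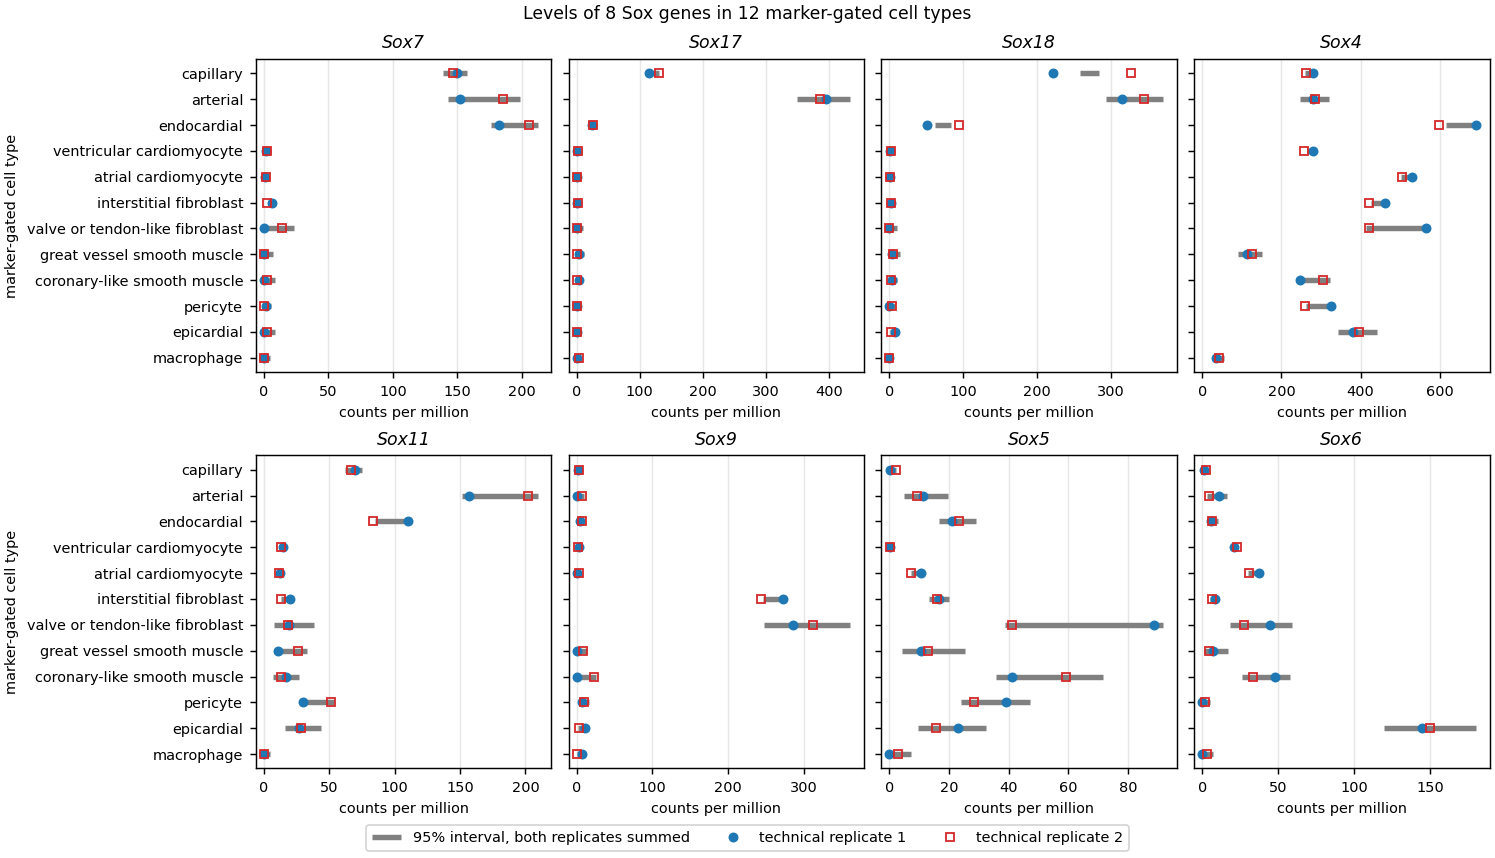
CPM (horizontal axis, linear, own scale per gene) of the 8 Sox genes in 12 marker-gated cell types (vertical axis), with a filled circle for technical replicate 1, an open square for technical replicate 2 and a grey bar for the 95% counting interval of the sum. Sox17 and Sox18 are highest in arterial cells (390.1 and 330.1 CPM) and lower in endocardial cells (25.1 and 71.5), Sox7 is at 148 to 193 CPM in the 3 endothelial types, Sox9 is high only in the 2 fibroblast types, and Sox4 is above 100 CPM everywhere but in macrophages.

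The SoxF genes were read almost wholly in endothelium, and within it they differed from each other: Sox17 was highest in arterial cells, Sox18 was high in arterial and capillary cells and low in the endocardium, and Sox7 differed by at most 1.31-fold among the 3. All 943 endothelial cells, among them 100 of no finer type and the 4 lymphatic ones, held 93.3% of Sox7 counts among the cells kept. They held 95.7% of Sox17 counts and 96.3% of Sox18 counts. Against all other types, 8 of 8 members could be read, 4 were called higher in endothelium (Sox7, Sox11, Sox17, Sox18) where 22.4% of all genes were, and 2 were called lower (Sox6, Sox9) where 16.7% were.

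Sox17 stood at 390.1 CPM in arterial cells (395 and 385 in the replicates), 122 in capillary cells (115 and 130.4) and 25.1 in endocardial cells (24.2 and 26.2). The replicates lay close together in each type, and the types did not overlap. Arterial cells exceeded capillary cells 3.19-fold (interval 2.81 to 3.63; 3.44 and 2.95 in the replicates), and capillary cells exceeded endocardial cells 4.86-fold (3.72 to 6.45; 4.75 and 4.98). In arterial against capillary cells 5 of the 8 members had enough counts and 2 were called higher, Sox17 and Sox11, where 2.45% of 9493 genes were. In the other 9 types Sox17 was at 0 to 1.94 CPM.

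Sox17 counts were found in 82.8% of arterial, 63.6% of capillary and 6.33% of endocardial cells. With every cell thinned to 2000 counts the shares were 51.7%, 21.3% and 2.53%, in the same order. Ventricular cardiomyocytes, which should lack the gene, had a Sox17 count in 0.574% of cells at a median of 6354 counts, against 9848 in capillary cells. In the endocardium the 58 Sox17 counts came from 15 of 237 cells, and 44 of them (75.9%) from 5 cells. Those 15 cells had a median of 2 Gja4 and Gja5 counts and 2 of 6 capillary markers, where the rest had 0 and 1, and both had 4 of 6 endocardial markers. The cells with Sox17 were also deeper, with a median of 12048 against 7823 counts, and the part that depth or mixed cells have in these counts was not tested.

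The level of Sox17 also differed with the amount of the arterial connexins. Among endothelial cells outside the endocardium it was at 116 CPM in 560 cells without a Gja4 or Gja5 count (106 and 127 in the replicates), 142 in 65 cells with 1 count (138 and 149) and 104 in 16 cells with 2 counts (108 and 97.0). It was at 277 CPM in 16 cells with 3 to 5 counts (228 and 317) and 641 in 26 cells with 6 or more (744 and 551). Cells at the edge of the arterial type, with 2 counts, thus had no more Sox17 than cells just outside it, and the high level came from cells with 3 or more. The groups of 16 cells are thinly filled. The median depth was 8160 counts in the first group and 13158 in the last, and the part of depth was not tested.

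**Figure D2:**
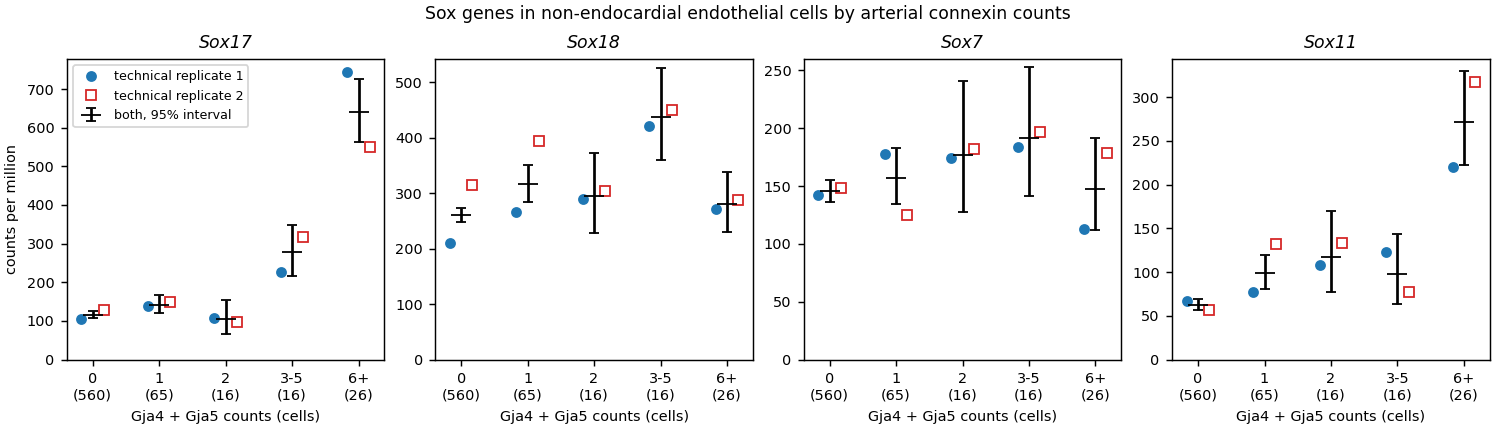
CPM (vertical axes, linear from 0) of Sox17, Sox18, Sox7 and Sox11 in endothelial cells outside the endocardium, grouped by the cell's summed counts of Gja4 and Gja5 (horizontal axis, number of cells in brackets). Black bars are the 95% counting interval of both technical replicates summed. Sox17 and Sox11 are highest at 6 or more connexin counts (641 and 272 CPM), while Sox18 peaks at 3 to 5 counts (437 CPM) and Sox7 lies between 145 and 191 CPM throughout.

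Dividing cells were 43.9% of capillary, 27.6% of arterial and 15.2% of endocardial cells, by 4 or more of 8 cycling markers. Capillary cells in cycle had less Sox17 than resting ones, 101 against 167 CPM, a ratio of 0.604 (0.521 to 0.702; 0.664 and 0.542 in the replicates). Cycling capillary cells were deeper, with a median of 15174 counts against 6402. In capillary cells split by depth into 3 groups of 181 or 182 cells Sox17 was at 170 CPM in the shallow (142 to 202), 127 in the middle (111 to 144) and 111 CPM in the deep cells (101 to 122), and the part of depth in the ratio was not tested. The ratio is short of the 2-fold limit in both replicates, and none of the 5 members with enough counts was called in this comparison, in which 3.54% of genes were. Among resting cells alone, Sox17 was at 574 CPM in 37 arterial and 167 CPM in 234 capillary cells, a ratio of 3.43 (2.89 to 4.07; 4.66 and 2.49). These arterial cells were deeper, at a median of 10584 against 6402 counts, and the part of depth was not tested. All arterial cells were also split by depth into groups of 19 or 20. Sox17 was at 403 CPM in the shallow (304 to 523), 658 in the middle (561 to 766) and 247 in the deep arterial cells (204 to 296). The last 2 intervals do not overlap, so Sox17 varied among arterial cells by more than counting error. Capillary cells with 2 or more counts of Apln, the apelin gene that marks sprouting tip cells, had 99.6 CPM of Sox17 and cells without Apln 153 CPM, a ratio of 0.650 (0.688 and 0.599 in the replicates). None of the 5 members with enough counts was called for Apln, where 0.513% of genes were. Of the Apln-positive cells 56.4% were in cycle against 28.8% of the others. Apln-positive cells were also deeper, at a median of 15361 against 6327 counts. Among resting capillary cells the ratio was 0.560 (0.420 to 0.741; 0.559 and 0.570), at median depths of 10983 and 4604 counts, and the part of depth was not tested.

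Sox18, mutated in hypotrichosis with lymphoedema, was at 330.1 CPM in arterial cells (316 and 345), 271 in capillary cells (222 and 327) and 71.5 in endocardial cells (50.9 and 93.9). The endocardium was low in both replicates and did not overlap with the other types. Capillary cells exceeded it 3.78-fold (3.22 to 4.46; 4.36 and 3.48). In capillary against endocardial cells 6 members had enough counts: Sox17 and Sox18 were called higher, where 5.91% of genes were, and Sox4 and Sox5 lower, where 9.79% were. Sox18 also differed between the technical replicates more than most genes did. Replicate 2 had 1.47 times the capillary level of replicate 1 (1.34 to 1.62), a gap that 3 of 533 genes with as many counts reached, and 1.84 times its endocardial level (1.33 to 2.57), reached by 7 of 2515. In arterial cells the replicates were close, at a ratio of 1.09 (0.861 to 1.39).

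Sox7 was at 193 CPM in endocardial cells (182 and 206), 169 in arterial cells (152 and 185) and 148 in capillary cells (149.5 and 146). The ranges of arterial and endocardial cells overlapped between replicates. Neighbours in this order differed by ratios of 1.15 (0.9499 to 1.39) and 1.14 (0.9505 to 1.36), so that neither step lay outside counting error, while endocardial against capillary cells did: capillary over endocardial was 0.765 (0.822 and 0.711 in the replicates).

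Nearly every vascular endothelial cell carried a SoxF count. At least 1 of the 3 genes was counted in 98.3% of arterial (90.8% to 99.96%), 94.3% of capillary (92.0% to 96.1%) and 78.5% of endocardial cells (72.7% to 83.5%). All 3 were counted in 65.5%, 46.0% and 2.95% of them. Elsewhere the share with any SoxF count ran from 0.725% in macrophages to 6.35% in epicardial cells, and was 2.30% in ventricular cardiomyocytes. Thinned to 2000 counts, which left out 3 capillary cells and no arterial or endocardial cell, the shares with any were 81.0%, 66.0% and 41.4%, and at most 2.21% elsewhere.

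**Figure D3:**
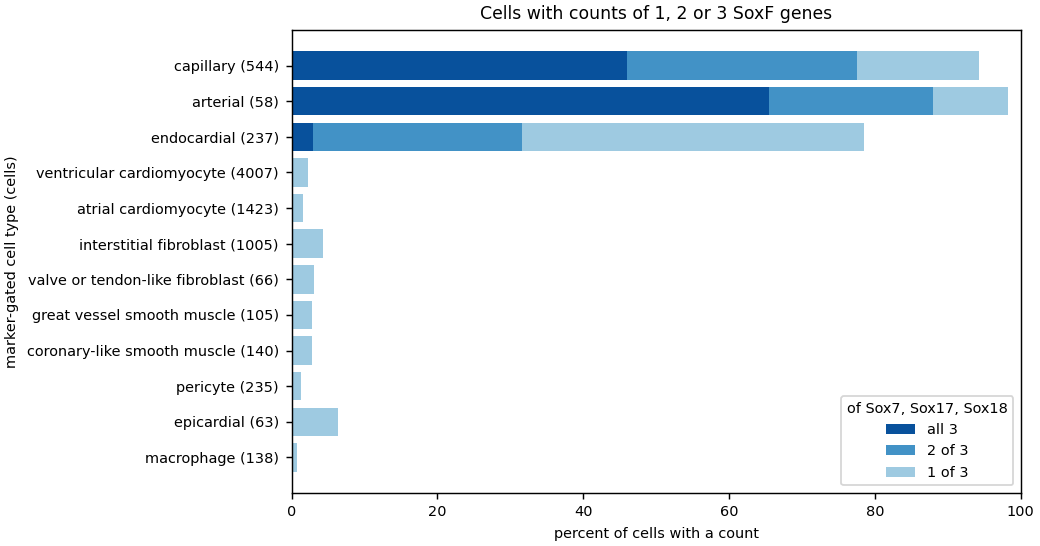
Percent of cells (horizontal axis) with counts of 1, 2 or all 3 of Sox7, Sox17 and Sox18 in each marker-gated cell type (vertical axis, number of cells in brackets), all counts used. Arterial and capillary bars reach 98.3% and 94.3% with all 3 genes in 65.5% and 46.0% of cells, while the endocardial bar reaches 78.5% with all 3 in 2.95%.

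How often the genes occurred in the same capillary cells changed when depth was made equal. With all counts, Sox18 was counted in 87.0% of capillary cells with Sox17 and 72.7% of those without. Thinned to 2000 counts the shares were 38.3% (29.4% to 47.8%) and 43.4% (38.7% to 48.3%), which overlap. Sox17 beside Sox7 went the same way, at 69.5% against 48.0% with all counts and 20.6% against 21.4% after thinning.

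Among 13 Notch pathway and arterial genes set beside SoxF, 12 could be read in arterial against capillary cells, 6 were called higher and none lower, where 2.45% and 1.55% of all genes were, with a median difference of 0.79 on the log2(CPM + 10) scale against 0.04 over all genes read. Cxcr4, a chemokine receptor of arterial sprouts, was 7.28-fold higher (5.15 and 8.29 in the replicates). Hey1, a Notch-induced repressor, was 7.24-fold higher (5.63 and 9.76), and the Notch ligand Jag1 6.16-fold (7.13 and 5.27). The receptor Notch1, at a ratio of 1.44, and the ligand Dll4, at 1.38, were not called; both were chosen after their values were seen. Arterial cells were chosen by counts of the arterial connexins Gja4 and Gja5, so the rise of other arterial genes is not independent of that choice.

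Of 8 genes known as SoxF targets, 6 could be read in capillary against endocardial cells, with 2 called higher and 2 lower, where 5.91% and 9.79% of all genes were. The tight junction gene Cldn5 was 6.32-fold higher in capillary cells (7.91 and 5.38) and the guidance receptor gene Robo4 7.25-fold higher (9.02 and 6.01), in the direction of Sox17 and Sox18. Prox1, which Sox18 switches on in lymphatic endothelium, went the other way, at 3.68 CPM in capillary and 155 CPM in endocardial cells. Vcam1, an adhesion molecule and the fourth of the list to be called, was at 6.03 and 32.1 CPM (named after its values were seen). None of the 5 targets readable in arterial against capillary cells was called, where 4.0% of genes were in either direction.

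The SoxC genes had different distributions. Sox4 was counted in 73.0% of all cells kept and was highest in the endocardium, whereas Sox11 was highest in arterial cells and was higher in cycling than in resting cardiomyocytes and fibroblasts. Sox4 was at 647 CPM in endocardial cells (692 and 597) and 518 in atrial cardiomyocytes (530.1 and 505). It was at 481 CPM in valve or tendon-like (564 and 421) and 443 in interstitial fibroblasts (462 and 420.1), and at 389 in epicardial cells. Pericytes, arterial, coronary-like smooth muscle, capillary and ventricular cells lay between 270.0 and 294 CPM, and each of these neighbours differed by less than counting error. Per counts outside mitochondrial genes ventricular cardiomyocytes leave that group, at 447 CPM against 285 in capillary cells and 306 in pericytes, and atrial cardiomyocytes (663) come close to the endocardium (686). Great vessel smooth muscle was at 118 CPM and macrophages at 39.0 CPM, each below the type above it by more than counting error.

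Endocardial cells had 2.39 times the capillary level of Sox4 (2.23 to 2.56), and Sox4 was 2.30 times as high in endocardial as in arterial cells (2.00 to 2.64). Among resting cells capillary over endocardial was 0.445. Great vessel smooth muscle had 0.423 times the coronary-like level (0.457 and 0.411), the one member of 8 with enough counts in that comparison and called lower, where 5.28% of genes were.

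Sox4 in cardiomyocytes depends on the denominator. Atrial over ventricular was 1.92 per all counts (1.89 and 1.96 in the replicates) and 1.48 per counts outside mitochondrial genes, a change that shifts every gene by -0.37 on the log2 scale. Ventricular over interstitial fibroblast was 0.610 per all counts and 0.966 outside mitochondrial genes, where every gene shifts by 0.66. The same step turned Sox11 from 0.858 to 1.36 in that comparison. Of 6 members with enough counts in ventricular cardiomyocytes against fibroblasts, Sox6 was called higher, where 11.9% of genes were, and Sox5 and Sox9 lower, where 38.0% were. Gm26735, a long noncoding RNA gene on the opposite strand, overlaps the 3′ end of Sox4 with 267 counts against 22795 for Sox4. Whether counting used strand was not given in the sources used here, so reads could be split between them.

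Sox11 was at 179 CPM in arterial (157 and 202), 97.1 in endocardial (110.1 and 83.0) and 68.1 in capillary cells (69.7 and 66.3). The 3 types kept this order in both replicates. Arterial exceeded endocardial cells 1.84-fold (1.49 to 2.27), endocardial exceeded capillary cells 1.43-fold (1.21 to 1.68), and capillary cells exceeded pericytes, at 39.8 CPM, 1.71-fold (1.25 to 2.40). From pericytes down through epicardial cells (27.7 CPM) to atrial cardiomyocytes (12.0 CPM), each type was within counting error of the next. The intervals of pericytes (28.7 to 53.8) and atrial cardiomyocytes (9.79 to 14.5), the ends of this row, did not overlap. No Sox11 count was seen in 138 macrophages, which allows up to 3.90 CPM (3 counts).

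The arterial excess of Sox11 was larger among resting cells. Arterial over capillary was 2.63 in all cells (2.18 to 3.16; 2.25 and 3.04 in the replicates), and 5.03 in resting cells (3.74 to 6.78; 5.18 and 4.83), at 234 against 46.5 CPM. In that resting comparison Sox11 and Sox17 were called higher, where 2.21% of genes were, and Sox7 (1.06), Sox18 (1.07) and Sox4 (0.997) were not. The resting arterial cells were deeper, at a median of 10584 against 6402 counts. Capillary cells had 44.5 CPM of Sox11 in the shallow and 74.9 CPM in the deep cells, and the part of depth was not tested. Like Sox17, Sox11 was highest in the 26 cells with 6 or more connexin counts, at 272 CPM (220 and 318), against 62.3 CPM in cells with none (67.1 and 57.0).

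In dividing cardiomyocytes and fibroblasts Sox11 was about 3-fold above resting cells, and Sox4 was not. In ventricular cardiomyocytes Sox11 was at 35.3 CPM in 288 cycling and 11.2 CPM in 3536 resting cells, a ratio of 3.16 (2.45 to 4.03; 3.02 and 3.34 in the replicates). Of the 4 members with enough counts it was the only one called higher, where 7.08% of genes were. None was called lower, where 1.92% were. In interstitial fibroblasts Sox11 was at 32.5 and 11.3 CPM, a ratio of 2.88 (1.89 to 4.39, with 2.37 and 3.95 in the replicates). Of the 4 members with enough counts there, Sox11 was again the only one called higher, where 4.21% of genes were. None was called lower, where 1.44% were. In atrial cardiomyocytes the ratio was 2.71 (3.53 and 1.87), under 2-fold in replicate 2 and so not called, where 5.59% of genes were. In pericytes it was 5.36 (2.34 to 13.8) on 25 and 8 counts, too few for a call. Over all interstitial fibroblasts Sox11 was at 19.5 and 12.7 CPM in the technical replicates, a gap that 73 of 6925 genes with as many counts reached.

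The endothelial ratios were lower, at 1.75 in capillary cells (1.38 to 2.25; 1.92 and 1.57), where Sox11 was at 44.5 CPM in the shallow, 62.5 in the middle and 74.9 in the deep cells, and 1.16 in endocardial cells (0.844 to 1.59; 1.23 and 1.10). Sox4 ran from 0.826 to 1.03 over the same 6 types. Counted outside mitochondrial genes, where every ventricular ratio shifts by -0.13 on the log2 scale, Sox11 stood at 2.89 and Sox4 moved from 1.03 to 0.941. Cycling cells were deeper, with a median of 8322 against 6180 counts in ventricular cardiomyocytes, and the part of depth in the ratios was not tested.

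**Figure D4:**
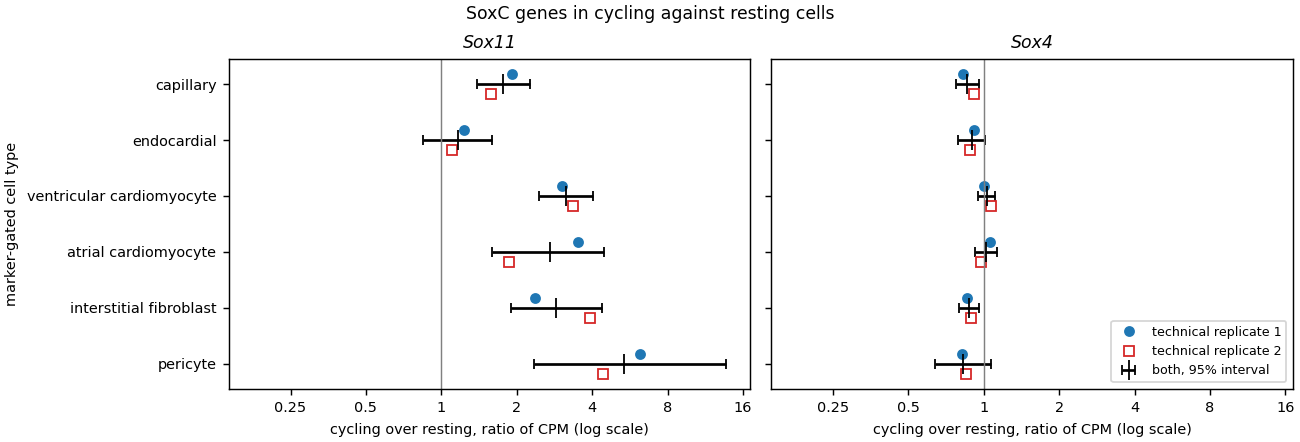
Ratio of CPM in cycling over resting cells (horizontal axis, log scale) for Sox11 and Sox4 in 6 marker-gated cell types (vertical axis), with circles and squares for technical replicates 1 and 2 and black bars for the 95% counting interval of the sum. Sox11 lies at 2.71 to 5.36 in cardiomyocytes, fibroblasts and pericytes and at 1.16 to 1.75 in endothelium, and Sox4 at 0.826 to 1.03.

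Of 6 genes known as SoxC targets, 4 could be read in arterial against capillary and in capillary against endocardial cells and none was called in either, where 4.0% and 15.7% of genes were in either direction. In atrial against ventricular cardiomyocytes 1 of 4 was called higher, where 9.07% of all genes were: Tead2, a partner of the Hippo pathway coactivators, at 94.1 and 28.3 CPM (3.32-fold; 3.38 and 3.26). In cycling against resting ventricular cardiomyocytes 1 of 4 was called higher, where 7.08% of all genes were: Stmn1, a microtubule regulator, at 9.07-fold. Stmn1 was 6.20-fold higher in cycling interstitial fibroblasts, again the 1 of 4 called, where 4.21% of genes were. In cycling capillary cells 1 of 4 was also called higher, where 3.54% of genes were called in either direction. In cycling atrial cardiomyocytes 1 of 3 was, where 5.59% of genes were called higher. Sox11 itself was above 1 but short of a call in both types.

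Sox9 was read in fibroblasts and in almost nothing else. It was at 300.5 CPM in valve or tendon-like cells (285 and 311) and 259 in interstitial fibroblasts (272 and 243), with counts in 68.2% and 66.7% of cells. In the other 10 types it was between 1.73 CPM in atrial cardiomyocytes and 13.2 CPM in coronary-like smooth muscle, where all 9 counts came from replicate 2. All 1259 fibroblasts, also those outside both types, held 92.0% of its counts. Valve or tendon-like cells, chosen by 3 or more counts of 6 genes such as Scx and Tnmd, had 1.16 times the interstitial level (0.952 to 1.41; 1.05 and 1.28). That step did not exceed counting error, and interstitial fibroblasts exceeded the next type 19.6-fold (10.3 to 42.8).

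The SoxD genes did differ between the fibroblast types. Of 5 members with enough counts in valve or tendon-like against interstitial fibroblasts, Sox5 and Sox6 were called higher, where 2.9% of genes were. Sox5 was at 61.2 CPM (88.8 and 41.2) against 16.3 (16.6 and 16.1), a ratio of 3.74 (2.27 to 5.92; 5.36 and 2.56). Sox6 was at 34.6 CPM (44.4 and 27.5) against 7.39 (8.29 and 6.37), a ratio of 4.68 (2.32 to 8.79; 5.36 and 4.31). These rest on 23 and 13 counts in 66 cells, and the replicates of the valve or tendon-like cells lie well apart while both stay above the interstitial cells.

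Of 13 cartilage and valve matrix genes that these factors are known to control, 6 could be read in the same comparison and 4 were called higher and none lower, where 2.9% and 5.98% of all genes were, with a median of 2.71 on the log2(CPM + 10) scale against -0.0037 over all genes. The cartilage collagen genes Col9a1 and Col9a3 were 29.9-fold (49.2 and 18.6) and 23.5-fold (19.1 and 28.8) higher, and Matn4, a matrix adaptor, 14.03-fold (16.5 and 12.4). Hapln1, a link protein of hyaluronan and the fourth called, named after its values were seen, was 11.1-fold higher (15.5 and 7.80). Col9a2, at a ratio of 0.856, and Col11a1, at 2.25, were the 2 not called. The valve or tendon-like cells were chosen by Scx, Fmod, Cilp2, Chad, Tnmd and Thbs4. These are tendon and matrix genes themselves, so the rise of other matrix genes is not independent of that choice. A gene can also reach the minimum of counts mainly through the type in which it is high. The 6 genes read, and their median, therefore do not stand for all 13.

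Sox5 separated the chambers of the heart. It was counted 78 times in 1423 atrial cardiomyocytes, 8.99 CPM (10.5 and 7.36), and 5 times in 4007 ventricular cardiomyocytes, 0.187 CPM (0.213 and 0.158). The ratio was 48.1 (19.7 to 152; 49.4 and 46.5). Of 6 members with enough counts in atrial against ventricular cells it was the one called higher, where 9.07% of genes were. The 78 atrial counts lay in 74 cells, with no more than 9 in the 5 cells that had most. Of these 74 cells 2 passed the minimum of another class, and their median number of fibroblast markers was 1, as in the other atrial cells. Among cells with at most 20% mitochondrial counts the ratio was 6.49 (2.05 to 33.0), on 35 counts in 593 atrial and 3 counts in 428 ventricular cells.

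Elsewhere Sox5 was at 51.4 CPM in coronary-like smooth muscle (41.0 and 59.2), 34.1 in pericytes (39.0 and 28.5) and 22.1 in endocardial cells (20.9 and 23.5). From valve or tendon-like cells down to atrial cardiomyocytes each of the 9 types was within counting error of the next. The ends of this row did not overlap, at 61.2 CPM (38.8 to 91.8) and 8.99 CPM (7.10 to 11.2). Capillary cells had 1.18 CPM, from 8 counts in 544 cells, so that the endocardium and the capillaries differed: capillary over endocardial was 0.0532 (0.0218 to 0.113; 0.0132 and 0.0942). In resting capillary cells no Sox5 count was seen.

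Sox6 was highest in epicardial cells, at 148 CPM (145 and 149.8) with counts in 57.1% of cells. The next type, coronary-like smooth muscle, had 39.7 CPM (47.9 and 33.5), a ratio of 3.72 (2.41 to 5.94). Valve or tendon-like cells followed at 34.6 CPM, then atrial cardiomyocytes at 34.1 (37.4 and 30.6) and ventricular cardiomyocytes at 22.0 (20.8 and 23.3). Atrial over ventricular was 1.55 (1.34 to 1.79) per all counts and 1.20 outside mitochondrial genes, and not called. Pericytes had 1 Sox6 count in 235 cells, where Sox5 had 36. Sox6 counts in epicardial cells were spread over 36 cells, of which the top 5 held 33.3%. Of the 36 cells 35 also passed the minimum of another class, and with such cells left out 1 count in 2 cells remained, so the level cannot be read without them. Interstitial fibroblasts, whose markers these cells share, had 7.39 CPM. Sox6os, an antisense gene within Sox6, had 108 counts against 1251 for Sox6.

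Profiles over the 12 types were set against 10837 genes with at least 200 counts, leaving out markers and members, by Pearson's r of log2(CPM + 10). These r describe 12 points that share their libraries and each type's total. The 5 genes most like Sox17 were Magix, Ceacam1, Rbp7, Grrp1 and Exoc3l (r 0.979 to 0.998). Those most like Sox18 were Myct1, Cyyr1, Ppp1r16b, Mall and Adgrl4, a receptor of endothelial cells (0.988 to 0.9925). Those most like Sox7 were She, Fgd5, Nos3, the endothelial nitric oxide synthase, Rnf125 and Gimap1 (0.992 to 0.995). Sox9 went with the cartilage collagens Col11a1 and Col9a2 and with Itih5, Ssc5d and Arsj (0.937 to 0.979). For Sox6 they were Neo1, Slc4a4, Prkd1, Lrrc1 and Baiap2l1 (0.874 to 0.953), and for Sox11 Csnk1g2, Vsig10, Numb, Cdc42bpb and Shroom4 (0.928 to 0.944). For Sox5 they were Atat1, Elp2, B4gat1, Sec22a and Malat1 (0.8997 to 0.929), lower r than those of the SoxF genes and Sox9.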

How the data were processed

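The authors deposited 2 tables of whole-number counts per gene and barcode, 1 for each technical replicate; Cell Ranger 2.1.0 and the build mm10 are named in the submitters' processing notes. Whether these counts are molecules or reads, and whether strand was used, was not given in the sources used here, and if they are reads the counting intervals are too narrow. The labels do not say what separates the technical replicates. Both records carry the same internal identifier, while the second table's columns carry another. Of the 27999 identifiers 27645 matched GENCODE M21. The libraries held 34668956 and 33871582 counts in 5888 and 6047 barcodes (median 4831 and 4521 counts). Of these barcodes 186 had under 500 genes and 3148 more were left out for haemoglobin.

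Cells were typed by detected markers (at least 6 of 10 endothelial, 6 of 10 cardiomyocyte, 5 of 8 fibroblast, and 4 of the pericyte, smooth muscle, epicardial and macrophage lists, with cardiomyocyte markers also at 75 or more per 10000 counts outside mitochondrial genes), then by finer lists. Epicardial markers took precedence over fibroblast markers. Minimums were set after viewing the markers, not the Sox genes, and the members and lists were chosen with earlier results of these data known. No doublet caller was run: 579 cells (6.73%) passed several classes. Counts were summed per type and replicate. CPM, ratios (log2 with a pseudocount of 10 CPM) and shares, also thinned to 2000 counts a cell, were computed in Python 3.11.15 with numpy 2.4.6, scipy 1.17.1 and pandas 2.3.3, and drawn with matplotlib 3.10.9. The calling rule was tried on simulated Poisson counts that held no variation between cells or technical replicates. That trial therefore cannot show how the rule behaves under such variation. Genes outside the members were named by a rule: up to 3 called genes of each list with the largest fold, and the 5 genes most like each member (those of Sox4 are not reported here). Another 10 settings were tried.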

Additional observations from a re-analysis of the deposited data

How the results depend on the processing

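For 8 ratios planned and 7 added after seeing the data, 10 other settings gave 150 values, of which 143 lay within the 95% counting interval of the value reported. Whether each call still held was not recomputed, and they include values on few counts, such as Sox11 in cycling over resting ventricular cardiomyocytes with barcodes over 20% mitochondrial counts left out (3.35, 1.03 to 9.64, on 6 and 12 counts) and Sox6 in epicardial over coronary-like cells without cells of several classes (3.17, 0.0774 to 19.3, on 1 and 26 counts), both too few for a call. Some settings changed few or no cells, so that their values could hardly move. A minimum of 1000 detected genes kept all 58 arterial and 544 capillary cells, and barcodes found in both libraries were 78 of the cells kept. The 7 values outside the interval were as follows. One more detected marker gave 3.95 for Sox17 in arterial over capillary cells, on 40 arterial cells. The mean of per-cell CPM gave 3.19 for Sox11 there. Outside mitochondrial genes Sox6 in ventricular cardiomyocytes over fibroblasts was 4.71 in place of 2.98, and Sox4 in atrial over ventricular cardiomyocytes 1.48. With barcodes over 20% mitochondrial counts left out, Sox5 in ventricular cardiomyocytes over fibroblasts was 0.0842 in place of 0.0114, Sox5 atrial over ventricular 6.49 on 35 and 3 counts, too few for a call, and Sox4 atrial over ventricular 2.14 in place of 1.92, across the 2-fold limit, with 428 of 4007 ventricular cells kept.

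Leaving out each technical replicate, with cells typed anew, gave 2.95 to 3.44 for Sox17 arterial over capillary, 3.44 to 4.36 for Sox18 and 0.702 to 0.822 for Sox7 capillary over endocardial, 2.29 to 2.48 for Sox4 endocardial over capillary, 1.05 to 1.28 for Sox9 and 0.974 to 1.44 for Sox11 in valve or tendon-like over interstitial fibroblasts, and 2.52 to 3.67 for Sox6 and 0.00968 to 0.0128 for Sox5 in ventricular cardiomyocytes over fibroblasts. Sox11 in valve or tendon-like cells rests on 7 counts, and its ratio of 1.14 fell to 0.510 with haemoglobin under 0.1%, both within counting error. No paired analysis was possible because the labels give 1 biological sample and no groups of samples to compare. Few counts limit Sox5, Sox6 and Sox11 in the small cell types, and the single biological replicate limits all ratios to these hearts.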

Other observations

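The tables held 11 other Sox genes. Of these Sox12, the third SoxC gene, had 2622 counts in the cells kept and Sox13, the third SoxD gene, 590. Sox30, a factor of male germ cells, had 25, and the rest had between 0 and 14 (Sox14 had none). Sox12 was at 122 CPM in epicardial cells (87.5 and 145 in the technical replicates), 57.5 in ventricular cardiomyocytes (55.0 and 60.2) and 52.0 in atrial cardiomyocytes, and at 3.90 to 34.6 CPM in the other 9 types. Its epicardial replicates lie apart, and 61 of the 63 epicardial cells also passed the marker minimum of another class. Per counts outside mitochondrial genes the levels were 129 CPM in epicardial cells, 95.1 in ventricular and 66.6 in atrial cardiomyocytes.

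Sox13 was at 71.6 CPM in arterial cells (74.9 and 68.1), 34.1 in capillary cells (35.5 and 32.5) and 31.6 in endocardial cells, at 2.66 to 23.5 CPM in fibroblasts, coronary-like smooth muscle, pericytes and epicardial cells, and at most 0.576 CPM in the other 4 types. Arterial cells had 2.097 times the capillary level (1.56 to 2.79; 2.11 and 2.09), on 62 arterial counts. Of the 2 other Sox genes with enough counts Sox13 was the 1 called higher, where 2.45% of genes were. Both replicates lay just past the 2-fold limit and the interval reaches below it. In fibroblasts, where Sox5 and Sox6 were called higher in valve or tendon-like cells, Sox13 had 1 count in 66 such cells and 111 counts in 1005 interstitial cells, a ratio of 0.152 (0.00382 to 0.867).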
